A study of Mus musculus with 12 samples.

Results

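The 6 genes described here encode surface molecules by which myeloid cells instruct T cells, namely Cd80, Cd86, Cd40, Icosl, Cd274 and Pdcd1lg2. They were taken from the deposited counts by gene symbol, with no use of their measured values, and make up 6 of the 57010 genes counted. A filter on low counts left 15425 genes for testing, and all 6 genes passed it. They were followed across 12 RNA-seq libraries of preosteoclasts, mononuclear osteoclast precursors grown from bone marrow for 2 days with M-CSF and RANKL.

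The mice were female and carried either an intact (LSD1WT) or a deleted (LSD1cKO) gene for the histone demethylase LSD1, encoded by Kdm1a. Deletion was by LysM-Cre, which is driven from the Lyz2 promoter in cells of the myeloid line, so cells of other lines in a culture keep the gene. Per the labels, the mice were 2 months old, which the study's methods give as the age at ligature placement. Its sequencing methods give an older age. For each genotype there were 3 cultures with 2 libraries each: mandible marrow of ligated mice, femur marrow of ligated mice, and femur marrow of unligated mice. Per the study's methods, the ligatures were on the maxillary second molars of both sides, thus in the upper jaw, for 7 days. The labels name 9 mice, 5 LSD1WT and 4 LSD1cKO, of which 1 LSD1WT and 2 LSD1cKO mice are the source of libraries from both mandible and ligated femur. Mandible LSD1WT is numbered replicates 1 and 3 and the other pairs replicates 1 and 2. The title of mandible LSD1WT replicate 3 names the mandible and its library name the femur, and the title was followed.

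T cells need a second signal beside the antigen receptor. CD80 and CD86 give it by binding CD28 on the T cell and withdraw it by binding CTLA-4, CD40 receives the CD40 ligand of helper T cells and in turn raises CD80 and CD86, and ICOSL engages ICOS. PD-L1 (Cd274) and PD-L2 (Pdcd1lg2) bind PD-1 and restrain the T cell. Macrophages and dendritic cells carry these molecules and raise several of them after interferon or CD40 signals, and osteoclasts share that lineage.

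Total counts ran from 21375805 to 32526751 with a median of 26364586, and levels are given as CPM, read counts relative to the TMM-scaled library total. In this range a count of 0 allows up to 0.0927 to 0.154 CPM (3 counts). Such limits cover counting error only. Kdm1a was between 61.2 and 71.3 CPM in the 6 LSD1WT libraries and between 15.6 and 24.3 CPM in the 6 LSD1cKO libraries. Both femur LSD1WT replicate 2 libraries stood apart from the rest. The sum of 10 osteoclast marker genes was 168 CPM in the ligated and 238 CPM in the unligated one, which is 0.411% and 0.635% of the sum in replicate 1 of the same culture. Their macrophage marker sums were 42400 and 19600 CPM, against 2820 to 10300 CPM in the other 10 libraries. The label preosteoclast is therefore not borne out by osteoclast markers in those 2 libraries. The genotype tests over the 3 cultures and the correlations of the 6 genes are given below with and without them. The mandible LSD1WT libraries, in contrast, were the most alike of the pairs. Between them 12.3% of genes were under 0.05 in an unadjusted chi-square test against sampling noise. In the other pairs 39.3% to 80.8% of genes were. These shares include the genes that sampling noise alone puts under 0.05.

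Per kilobase of exon, Cd274 had the highest level of the 6 genes in 10 of the 12 libraries and took between 38.5% and 61.9% of their summed level there. In the femur LSD1WT replicate 2 libraries Icosl came first instead, with 25.4% and 39.6% of the sum. Over the 6 LSD1cKO libraries the median levels per kilobase of exon were 24.1 CPM for Cd274, 6.95 for Cd80, 5.76 for Cd86, 5.68 for Cd40, 0.993 for Icosl and 0.405 for Pdcd1lg2. The ranges of Cd80 (4.47 to 7.78), Cd86 (4.42 to 11) and Cd40 (1.55 to 10.9) overlapped, so these 3 neighbours in the order were not separated. Pdcd1lg2 had at most 22 counts in a library and was the lowest in all 12.

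RefSeq promoters (GRCm38.p6, from 250 bases before to 50 after the start) were matched by symbol for 4 of the 6 genes, Cd80, Cd274, Pdcd1lg2 and Icosl. The sequences of 3 are shown because they differ in the pattern described next with all 12 libraries. Cd80 was the one gene to pass the test between genotypes, Cd274 was the most abundant transcript, and Icosl had a value of the opposite sign. That sign rests on the femur LSD1WT replicate 2 libraries, and without both the log2 fold change of Icosl was 1.29. All 3 lie on the + strand, at chr16:38458683-38458982 for Cd80, chr19:29367188-29367487 for Cd274 and chr10:78069118-78069417 for Icosl. Capitals mark matches on either strand to an interferon regulatory factor core (AANNGAAA) or an AP-1 site (TGANTCA). A STAT dimer site (TTCNNNGAA, in 8.29% of promoters) and a PU.1 core (GAGGAA, 28.3%) were searched as well and have no match in these 3 windows. Matches to an NF-kB site (GGG and CC with any 5 bases between) were left in lower case, since 50.8% of promoters hold one.
Cd80: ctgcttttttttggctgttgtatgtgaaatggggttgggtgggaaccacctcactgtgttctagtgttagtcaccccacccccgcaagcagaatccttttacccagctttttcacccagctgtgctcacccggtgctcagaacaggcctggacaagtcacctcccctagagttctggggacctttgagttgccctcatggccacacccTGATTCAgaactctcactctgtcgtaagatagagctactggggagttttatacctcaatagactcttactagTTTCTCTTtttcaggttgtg
Cd274: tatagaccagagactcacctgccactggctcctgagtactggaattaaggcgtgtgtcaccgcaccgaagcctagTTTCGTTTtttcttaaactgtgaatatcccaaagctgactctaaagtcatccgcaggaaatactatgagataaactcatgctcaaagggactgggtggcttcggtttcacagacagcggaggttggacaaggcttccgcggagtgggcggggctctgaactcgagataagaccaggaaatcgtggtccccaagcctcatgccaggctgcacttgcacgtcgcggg
Icosl: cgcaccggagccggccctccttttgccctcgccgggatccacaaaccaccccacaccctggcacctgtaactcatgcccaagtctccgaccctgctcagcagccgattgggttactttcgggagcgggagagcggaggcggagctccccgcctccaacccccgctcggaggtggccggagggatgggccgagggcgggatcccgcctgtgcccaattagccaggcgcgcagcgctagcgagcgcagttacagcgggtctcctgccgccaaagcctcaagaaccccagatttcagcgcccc
The interferon regulatory factor core was found once in the Cd80 window, once in that of Cd274 and once in that of Pdcd1lg2, beginning at 30, -175 and -35 from the start site, and not in the Icosl window. It occurs in 23.9% of 32817 promoters of this length. The AP-1 letters began at -42 in Cd80 alone, and 7.81% of promoters hold them. The Icosl window was the richest in G and C of the 4, at 68%, against 49.7% for Cd80, 52.7% for Cd274 and 46% for Pdcd1lg2. These matches describe the letters and say nothing of binding.

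The first comparison asks whether loss of LSD1 was accompanied by other levels of these molecules. CD80 and CD86 share both receptors, CD28 and CTLA-4. Cd80 (ENSMUSG00000075122) rose in LSD1cKO. Its mandible values were 14.3 and 13.1 CPM for LSD1WT against 28.0 and 26.2 CPM for LSD1cKO. The ligated femur libraries had 10.6 and 20.6 CPM for LSD1WT against 21.0 and 25.2 CPM for LSD1cKO. The unligated femur libraries had 10.9 and 9.11 CPM for LSD1WT against 16.6 and 28.8 CPM for LSD1cKO. The LSD1cKO pair was above the LSD1WT pair in each culture, although in ligated femur the gap between 20.6 and 21.0 CPM was narrower than the spread within either pair. Over the 3 cultures the log2 fold change was 0.91 ± 0.20 (SE, n = 6 per genotype, edgeR quasi-likelihood test, Benjamini-Hochberg adjusted p = 0.0346), a 1.88-fold difference. The call ended when any 1 of 7 libraries was left out (each of the 4 mandible libraries, ligated femur LSD1cKO replicate 2, or unligated femur LSD1WT replicate 1 or LSD1cKO replicate 2), with edgeR adjusted p from 0.0512 to 0.0749 and log2 fold changes from 0.82 to 0.97. With the replicate number as a block, which pairs no mice here, the adjusted p was 0.0781 (edgeR). The 6 libraries per genotype came from 5 LSD1WT and 4 LSD1cKO mice, and the main fit took libraries of the same mouse as independent. With the mouse as a random effect the call also ended, at 0.93 ± 0.22 (limma voom, adjusted p = 0.0558). Cd80 was at 1.08 ± 0.15 (edgeR, adjusted p = 0.000716) without both femur LSD1WT replicate 2 libraries.

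Cd86 (ENSMUSG00000022901) had its largest log2 fold change in the mandible when all 12 libraries were used. Values there were 4.08 and 4.15 CPM in LSD1WT and 16.2 CPM in both LSD1cKO libraries. Levels in ligated femur were 5.72 and 35 CPM for LSD1WT against 35.5 and 40.1 CPM for LSD1cKO. Levels in unligated femur were 9.39 and 9.57 CPM for LSD1WT against 18.6 and 23.6 CPM for LSD1cKO. LSD1WT replicate 2 of the ligated femur thus reached the LSD1cKO level, whereas that of the unligated femur stayed beside its partner. Without both of these libraries the log2 fold change was larger in ligated femur, at 2.81, than in the mandible, at 2.01. The ligated femur value then rests on a single LSD1WT library. The log2 fold change over the 3 cultures was 1.33 ± 0.36 (edgeR, adjusted p = 0.0808) with all libraries, and 1.96 ± 0.23 (edgeR, adjusted p = 0.000243) without both femur LSD1WT replicate 2 libraries. Within single mandible libraries Cd80 was 3.51 and 3.16 times Cd86 in LSD1WT and 1.73 and 1.62 times in LSD1cKO by CPM, a ratio that was given no test.

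CD40 is the receptor by which helper T cells license antigen-presenting cells. Cd40 (ENSMUSG00000017652) was at 1.67 and 1.83 CPM in mandible LSD1WT against 5.29 and 7.57 CPM in mandible LSD1cKO. For ligated femur the values were 4.33 and 22.1 CPM under LSD1WT against 28.6 and 37.2 CPM under LSD1cKO. For unligated femur they were 7.14 and 19.2 CPM under LSD1WT against 15.8 and 22.9 CPM under LSD1cKO. The groups overlapped in unligated femur, again through LSD1WT replicate 2. The log2 fold change over the 3 cultures was 1.24 ± 0.41 (edgeR, adjusted p = 0.152), and 2.06 ± 0.27 (edgeR, adjusted p = 0.000414) without both femur LSD1WT replicate 2 libraries.

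Icosl (ENSMUSG00000000732), the ligand of ICOS, showed the opposite sign. Its mandible values were 1.55 and 1.36 CPM for LSD1WT against 2.06 and 2.5 CPM for LSD1cKO. The ligated femur libraries had 1.71 and 44.5 CPM for LSD1WT against 7.00 and 5.61 CPM for LSD1cKO. The unligated femur libraries had 2.06 and 36.4 CPM for LSD1WT against 3.56 and 8.03 CPM for LSD1cKO. The 2 highest values of the 12 were those of the femur LSD1WT replicate 2 libraries, and the other 4 LSD1WT libraries did not exceed 2.06 CPM, the lowest LSD1cKO value. The log2 fold change over the 3 cultures was -1.06 ± 0.85 (edgeR, adjusted p = 0.611). Without both of those libraries it turned to 1.29 ± 0.30 (edgeR, adjusted p = 0.0109), so its direction rests on them.

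The PD-1 ligands had positive log2 fold changes, as Cd80, Cd86 and Cd40 did. Cd274 (ENSMUSG00000016496), which encodes PD-L1, was at 19.5 and 21.0 CPM in mandible LSD1WT against 32.3 and 38.2 CPM in mandible LSD1cKO. Levels in ligated femur were 36.9 and 24.0 CPM for LSD1WT against 142 and 144 CPM for LSD1cKO. Levels in unligated femur were 43.7 and 4.76 CPM for LSD1WT against 82.0 and 92.8 CPM for LSD1cKO. No culture had overlapping groups, and here the femur LSD1WT replicate 2 libraries were below their partners rather than above. The log2 fold change over the 3 cultures was 1.63 ± 0.45 (edgeR, adjusted p = 0.0809), and 1.21 ± 0.19 (edgeR, adjusted p = 0.00125) without both of those libraries.

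Pdcd1lg2 (ENSMUSG00000016498), which encodes PD-L2, was near the limit of detection. In the mandible it had 8 and 4 counts in LSD1WT and 17 and 8 counts in LSD1cKO. In ligated femur it had 13 and 2 counts in LSD1WT and 22 in both LSD1cKO libraries. In unligated femur it had 14 and 0 counts in LSD1WT and 22 in both LSD1cKO libraries, and the count of 0 allows up to 0.124 CPM. The mandible groups overlapped and the femur groups did not. The log2 fold change over the 3 cultures was 1.37 ± 0.60 (edgeR, adjusted p = 0.293), and 0.86 ± 0.34 (edgeR, adjusted p = 0.0958) without both femur LSD1WT replicate 2 libraries.

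**Figure D1:**
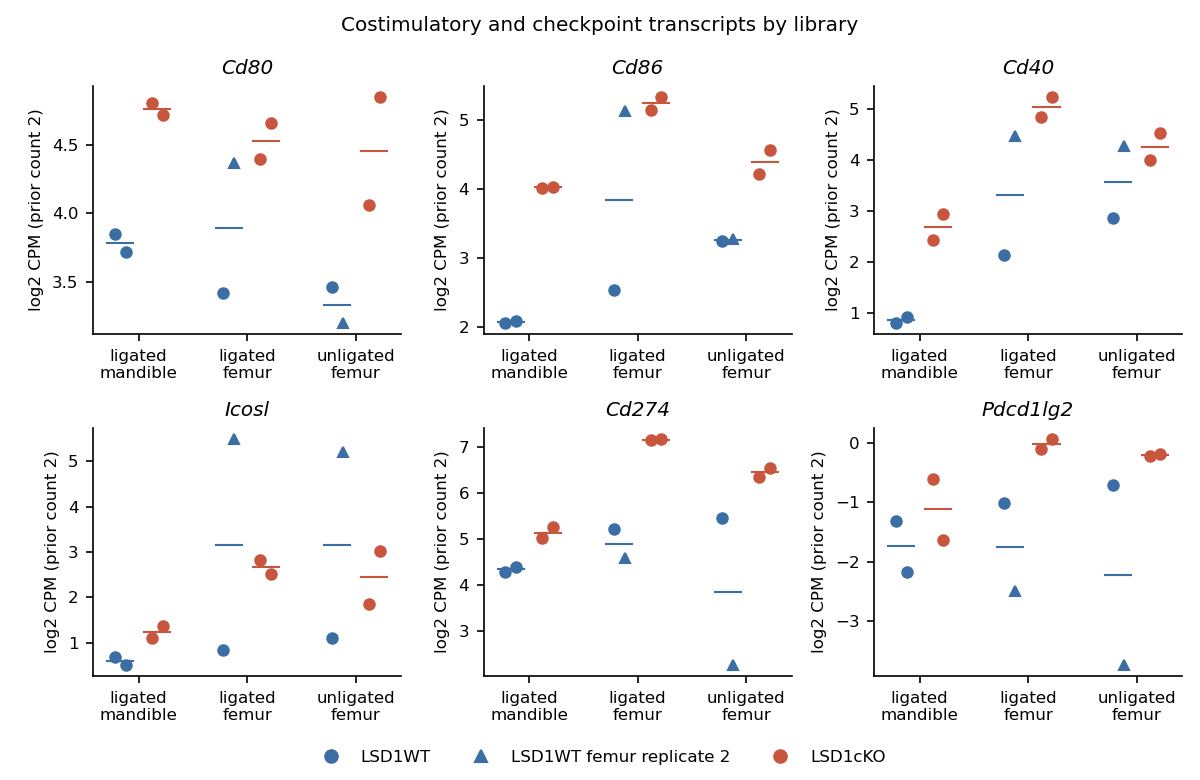
Level of each gene in each library, as log2 CPM with a prior count of 2, by culture, with horizontal bars at the mean of the 2 libraries. Circles and triangles are single libraries (blue LSD1WT, red LSD1cKO), and the triangles, femur LSD1WT replicate 2, lie above their partners for Icosl and Cd40 and below them for Cd274 and Pdcd1lg2.

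Of the 6 genes, 1 was called over the 3 cultures (adjusted p under 0.05), where 3.53% of all genes were called and 3% were called as higher in LSD1cKO. At an unadjusted p under 0.05, 5 of the 6 were higher, against 8.31% of all genes. For genotype over 3 cultures DESeq2 called 4 of the 6, Cd80, Cd86, Cd40 and Cd274, and 1210 genes in all. The median edgeR log2 fold change of the 6 was 1.29, beside -0.06 for all genes. Leaving out both femur LSD1WT replicate 2 libraries raised the calls to 5 of 6, all higher, but under that choice 14.4% of 16008 genes were called higher and 24.2% in either direction, so the background rose as well. Without those 2 libraries all 10 osteoclast markers were called lower in LSD1cKO (median log2 value -0.92) and 3 of 7 macrophage markers were called higher (edgeR), while with all 12 libraries 0 of either list were called (medians -0.32 and -0.34). In the mandible the osteoclast marker sum was 26200 and 26100 CPM in LSD1WT and 14600 and 14800 CPM in LSD1cKO. In bulk RNA, fewer cells of a type and less RNA per cell cannot be told apart, and the part of culture composition in the differences was not tested.

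**Figure D2:**
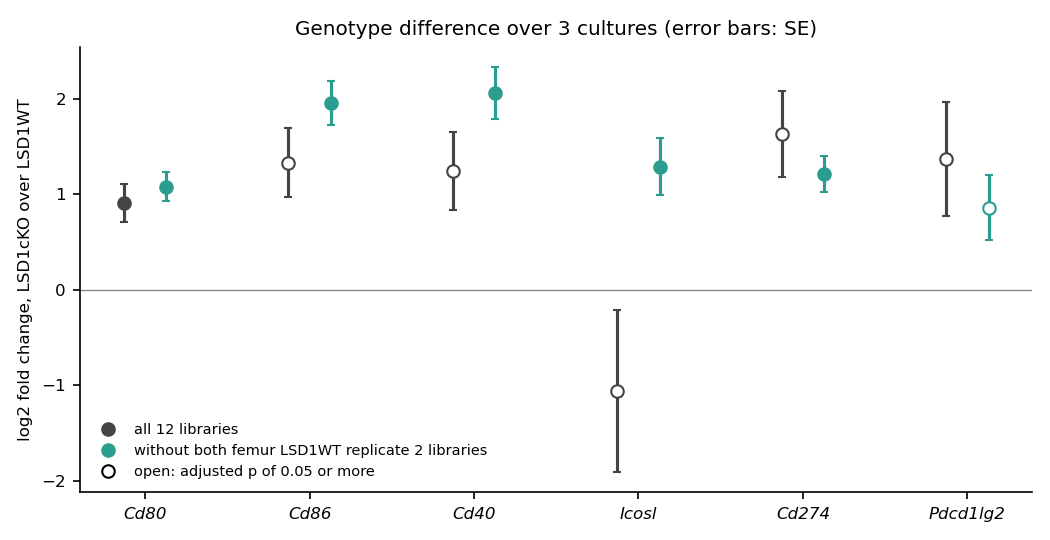
Log2 fold change of LSD1cKO over LSD1WT across the 3 cultures for each gene, with SE bars, with all 12 libraries (grey) and without both femur LSD1WT replicate 2 libraries (green). Filled points passed the adjusted p threshold, which Cd80 did in both fits, and Icosl moves from -1.06 to 1.29.

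Within single cultures, each with 2 libraries per genotype, the separation of the groups gives a plainer view. In the mandible the 2 LSD1cKO libraries were above both LSD1WT libraries for 5 of the 6 genes, all but Pdcd1lg2, and 34.1% of all genes showed the same order. In ligated femur this held for 5 genes, all but Icosl, against 14.8% of all genes. In unligated femur it held for 4 genes, all but Cd40 and Icosl, against 9.82%. Cd80, Cd86 and Cd274 kept this order in all 3 cultures, as did 5.17% of all genes.

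None of the 6 passed the adjusted threshold in a single culture by the edgeR quasi-likelihood test over all 6 conditions. In simulated counts with 200 genes changed, the mandible comparison of this fit recovered 0% of 2-fold and 8.5% of 4-fold changes. The lack of calls therefore says little about changes of that size. In the mandible 0% of all genes passed, and Cd86 (1.98 ± 0.65), Cd80 (0.98 ± 0.36) and Cd40 (1.87 ± 0.73) were higher at an unadjusted p under 0.05, as were 3.81% of all genes. In ligated femur 0.00648% of genes passed, and Cd274 (2.23 ± 0.77 on the log2 scale) was the 1 gene of the 6 that was higher at the unadjusted threshold, where 3.91% of genes were. In unligated femur 0% passed, and Cd80 (1.18 ± 0.36) and Cd274 (1.85 ± 0.76) were higher at it, with 3.61% of genes. DESeq2, run as another tool, called 0 of the 6 in each of these cultures. With the 4 mandible libraries fitted alone, on 2 residual degrees of freedom, 4 of the 6 were called higher (edgeR), where 19.2% of 14403 genes were called higher and 37.7% in all: Cd86 at 1.98 ± 0.12, Cd80 at 0.99 ± 0.09, Cd40 at 1.87 ± 0.22 and Cd274 at 0.80 ± 0.10 on the log2 scale. Icosl was at 0.66 ± 0.24 (edgeR, adjusted p = 0.0606) there and Pdcd1lg2 was below the filter. The SEs of this fit rest on the mandible pairs alone, and the LSD1WT pair was the most alike of all pairs. In the fit over all conditions without both femur LSD1WT replicate 2 libraries, Cd86, Cd40 and Cd274 were called in the mandible (5.13% of genes called higher) and in ligated femur (6.89%), and Cd86 and Cd274 in unligated femur (2.14%), where LSD1WT is then a single library in either femur culture.

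The genotype effect itself was compared between cultures through interaction terms. Of the 6 genes, 0 were called between mandible and ligated femur and 0 between ligated and unligated femur (edgeR), and none was under an unadjusted p of 0.05, as were 149 and 53 of the 15425 genes (0.966% and 0.344%). By the adjusted p, 0% of genes were called in either comparison. DESeq2 called 0 of the 6 in both. Without both femur LSD1WT replicate 2 libraries the adjusted p again called 0 of the 6 and 0% of all genes, but several values changed, and LSD1WT is then a single library in each femur culture. For mandible minus ligated femur the interaction was at -1.20 ± 0.21 for Cd274, -1.10 ± 0.43 for Cd40 and -0.80 ± 0.26 for Cd86 on the log2 scale (edgeR, lowest adjusted p = 0.22). With all libraries those of Cd40 and Cd86 were positive, at 0.55 ± 0.99 and 1.08 ± 0.89. For ligated minus unligated femur it was at 1.63 ± 0.28 for Cd86, 1.56 ± 0.45 for Cd40 and 1.03 ± 0.23 for Cd274 (edgeR, lowest adjusted p = 0.41), where Cd86 had been at -0.26 ± 0.89. These 3 genes were under an unadjusted p of 0.05 in either comparison, as were 7.97% and 7.45% of 16008 genes. A difference in response between cultures is therefore not shown by the adjusted test, with or without those libraries.

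Anatomical site was the second axis. In LSD1cKO the mandible and ligated femur libraries came from the same 2 mice. Cd40 was at 5.29 and 7.57 CPM in the mandible and at 28.6 and 37.2 CPM in the femur. Cd274 was at 32.3 and 38.2 CPM in the mandible and at 142 and 144 CPM in the femur. Cd80 was at 28.0 and 26.2 CPM in the mandible and at 21.0 and 25.2 CPM in the femur. The mandible pair was lower without overlap for 5 of the 6 genes, as it was for 35% of all genes, and Cd80 was the exception, with its mandible pair above the femur pair. The fit over all conditions called 0 of the 6 and 0% of all genes (edgeR, adjusted p = 0.214 for Cd40, which was 5.12-fold lower in the mandible, and 0.269 for Cd274, 4.05-fold lower), while 15% of all genes were under an unadjusted p of 0.05 in either direction. Cd40 and Cd274 were the 2 of the 6 under that threshold. With the mouse as a block, 4 of the 6 were called lower in the mandible, where 18.6% of 15060 genes were called lower and 37.5% in either direction. The log2 differences with the block were -2.37 ± 0.17 for Cd40, -2.03 ± 0.15 for Cd274, -1.46 ± 0.22 for Icosl and -1.22 ± 0.16 for Cd86 (edgeR, highest adjusted p of the 4 = 2.47e-05). Cd80 was at 0.23 ± 0.16 (edgeR, adjusted p = 0.271) and Pdcd1lg2 at -1.16 ± 0.51 (edgeR, adjusted p = 0.0792). This fit left 1 residual degree of freedom, so its small p-values rest on the spread shared between genes.

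In LSD1WT only 1 mouse gave both sites. Over all conditions, 0 of the 6 genes were called (edgeR), with log2 differences of mandible against ligated femur of -2.91 ± 0.76 for Cd40, -2.30 ± 0.66 for Cd86 and -3.98 ± 1.55 for Icosl, and 0% of all genes were called. These 3 were under an unadjusted p of 0.05, as were 19.8% of all genes in either direction. The mandible pair was lower without overlap for Cd40, Cd86, Icosl and Cd274, as it was for 31.5% of all genes. Ligated femur LSD1WT replicate 2 had 22.1 CPM of Cd40, 35 CPM of Cd86 and 44.5 CPM of Icosl, and replicate 1 had 4.33, 5.72 and 1.71 CPM. Without both femur LSD1WT replicate 2 libraries the differences were -1.27 ± 0.34 for Cd40, -0.44 ± 0.21 for Cd86 and -0.21 ± 0.49 for Icosl on the log2 scale. With the mouse as a block, Cd40 (-1.33 ± 0.31, edgeR adjusted p = 0.00976) and Cd274 (-0.88 ± 0.22, edgeR adjusted p = 0.0165) were called lower, with 4.56% of genes, and 7.18% of genes were called in either direction, but the LSD1WT libraries alone leave 0 residual degrees of freedom in that fit and the spread came from the LSD1cKO mice.

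Ligature at the upper molars was the third axis, seen at a distance in femur marrow of separate mice. In LSD1cKO, Cd86 was at 35.5 and 40.1 CPM with ligature and at 18.6 and 23.6 CPM without. Cd274 was at 142 and 144 CPM with ligature and at 82.0 and 92.8 CPM without, and Cd40 at 28.6 and 37.2 CPM against 15.8 and 22.9 CPM. The ligated pair was above the unligated pair for these 3 genes and for Pdcd1lg2, as it was for 14% of all genes, and the pairs overlapped for Cd80 and Icosl. Pdcd1lg2 had 22 counts in every femur LSD1cKO library. Its order (0.855 and 0.964 CPM with ligature, 0.784 and 0.806 CPM without) thus came from the library totals alone. In LSD1WT the ligated pair was above the unligated pair for 0 of the 6, and for 5.25% of all genes. None of the 6 was called in LSD1cKO or in LSD1WT, and 0% of all genes were (edgeR; DESeq2 also called 0 of the 6). With all 12 libraries none of the 6 was under an unadjusted p of 0.05 in either genotype, where 0.959% and 0.765% of all genes were. Without both femur LSD1WT replicate 2 libraries, 0 of the 6 and 0% of all genes were again called, while in LSD1cKO 3 of the 6 were under an unadjusted p of 0.05, as were 9.66% of genes. They were Cd86 at 0.87 ± 0.16, Cd40 at 0.79 ± 0.25 and Cd274 at 0.73 ± 0.13 on the log2 scale (edgeR, lowest adjusted p = 0.215). In LSD1WT, then with a single library in each femur culture, all 6 values were negative, and Cd86 at -0.77 ± 0.23 (edgeR, adjusted p = 1) was the 1 gene under that threshold, with 2.24% of genes. With all libraries Cd86 had been at 1.10 ± 0.64 in LSD1WT.

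The receptors of these ligands belong to T cells, and they were looked for as a list beside defining T cell genes. Cd40lg, the ligand of CD40, had 0 counts in all 12 libraries. Pdcd1, which encodes PD-1, had at most 2 counts, and Ctla4 at most 9. Icos ranged from 0.0343 to 1.36 CPM. Cd3e was at 0 in all 6 LSD1WT libraries and had at most 2 counts in LSD1cKO, while the T cell receptor gene Trac reached 5 CPM in LSD1WT. Cd28 nevertheless ranged from 4.24 to 371 CPM in LSD1WT (median 25) and from 3.50 to 56.4 CPM in LSD1cKO (median 37). Its log2 fold change over the 3 cultures was -1.03 ± 0.63 (edgeR, adjusted p = 0.48), and 0.52 ± 0.21 (edgeR, adjusted p = 0.108) without both femur LSD1WT replicate 2 libraries. Of the other cells that carry these molecules, dendritic cell markers summed to 6.92 to 36.8 CPM in LSD1WT and 19.5 to 36.5 CPM in LSD1cKO over 8 genes, of which 7 passed the filter and 0 were called, with Xcr1 at no more than 4 counts. B cell markers summed to 0.734 to 7.39 CPM and 1.73 to 9.68 CPM over 7 genes, of which 3 passed the filter and 0 were called, although Ms4a1 (2.17 ± 0.58, edgeR adjusted p = 0.0779) and Cd79a (1.59 ± 0.58, edgeR adjusted p = 0.19) had positive values. Without both femur LSD1WT replicate 2 libraries 1 of 6 B cell markers was called higher, Cd79b (1.24 ± 0.30, edgeR adjusted p = 0.013). T and NK cell markers summed to 4.16 to 18.0 CPM and 3.49 to 16.1 CPM over 8 genes, and Trac was called lower without those 2 libraries (-0.92 ± 0.25, edgeR adjusted p = 0.0219). Neutrophil markers summed to 88.3 to 274 CPM and 136 to 301 CPM over 8 genes. The ranges of the genotypes overlapped for each of these lists, and their part in the differences was not tested.

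Genes that work with the 6 molecules were taken as 8 lists of 86 genes, of which 75 passed the filter. Over the 3 cultures 7 were called higher in LSD1cKO and 0 lower (edgeR), beside 3% and 0.532% of all genes. The TNF superfamily costimulatory ligands had 3 of 8 called. They were Tnfsf13 (APRIL, a B cell and plasma cell factor), at a log2 fold change of 1.42 ± 0.24, Tnfsf4 (OX40 ligand, which sustains activated T cells), at 1.25 ± 0.24, and Tnfsf15 (TL1A, a T cell costimulator), at 2.20 ± 0.52. All 8 of those ligands that passed the filter had positive values, with a median of 0.77. Tnfsf4 was low throughout, at 0.414 to 0.954 CPM in LSD1WT and 1.05 to 2.04 CPM in LSD1cKO, without overlap over the 6 libraries of each genotype.

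MHC class II presentation supplies the antigen signal that costimulation accompanies. It had 2 of 9 genes called, Cd74 (the invariant chain) at 1.51 ± 0.32 and H2-Oa (a subunit of the peptide-loading modulator H2-O) at 1.85 ± 0.30 on the log2 scale, and all 9 values were positive. Cd74 ran from 76.9 to 272 CPM in LSD1WT and from 233 to 863 CPM in LSD1cKO. H2-Oa ran from 0.207 to 1.10 CPM in LSD1WT and from 1.69 to 2.89 CPM in LSD1cKO. H2-Oa thus separated the genotypes in all 12 libraries, as Tnfsf4 did, and Cd74 overlapped. The share of all genes with such a separation was not counted.

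Interferon and STAT signalling, which drives PD-L1, had 1 of 17 genes called, the feedback inhibitor Socs1 at 1.17 ± 0.23 on the log2 scale. Socs1 ran from 1.49 to 2.52 CPM in LSD1WT and from 3.43 to 6.09 CPM in LSD1cKO, also without overlap. Irf1, the factor that acts on the Cd274 promoter after interferon gamma, was at 0.62 ± 0.19 (edgeR, adjusted p = 0.11). Among other checkpoint molecules of myeloid cells 1 of 15 was called, the inhibitory receptor Pilra at 0.60 ± 0.13. CD40 signalling had 0 of 14 called, with Traf2 at 0.51 ± 0.17 (edgeR, adjusted p = 0.144), and protein turnover of the ligands had 0 of 8 called. Of the other B7 family ligands, Cd276 (0.64 ± 0.65) and Vsir (-0.35 ± 0.21) were tested and not called. Without both femur LSD1WT replicate 2 libraries 36 of 76 genes on these lists were called higher and 4 lower (edgeR), beside 14.4% and 9.75% of all genes. The 7 genes named above as called remained under the threshold with adjusted p of at most 0.00878 (edgeR). Interferon and STAT signalling then had 12 of 17 called higher, CD40 signalling 3 of 14 higher and 1 lower, and protein turnover 1 of 8 higher and 2 lower. Irf1 was then at 0.88 ± 0.17 (edgeR, adjusted p = 0.00387) and Traf2 at 0.34 ± 0.08 (edgeR, adjusted p = 0.0139). Cd276 was at 0.06 ± 0.14 and Vsir at -0.11 ± 0.17, both still not called. With all 12 libraries and the mouse as a random effect, Pilra (0.61 ± 0.15, limma voom adjusted p = 0.0732) and Cd74 (1.59 ± 0.37, limma voom adjusted p = 0.0561) were lost. Pilra was also lost with no filter beyond 1 count (edgeR, adjusted p = 0.0503). Leaving out single libraries kept Tnfsf4, Tnfsf13 and H2-Oa past the threshold each time, but Tnfsf4 was lost (1.24 ± 0.28, edgeR adjusted p = 0.0533) when mandible LSD1WT replicate 3 was taken as ligated femur, as its library name has it. Socs1 was lost without ligated femur LSD1cKO replicate 2 (edgeR, adjusted p = 0.0514), and Pilra without either ligated femur LSD1cKO library or mandible LSD1cKO replicate 2 (edgeR, adjusted p up to 0.0645). Tnfsf15 stayed past it in 3 of 12 cases (without mandible LSD1cKO replicate 1 or either unligated femur LSD1WT library; edgeR adjusted p otherwise up to 0.114) and Cd74 in 5 (without that library, ligated femur LSD1WT replicate 2 or unligated femur LSD1WT replicate 1, LSD1WT replicate 2 or LSD1cKO replicate 2; up to 0.0721).

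**Figure D3:**
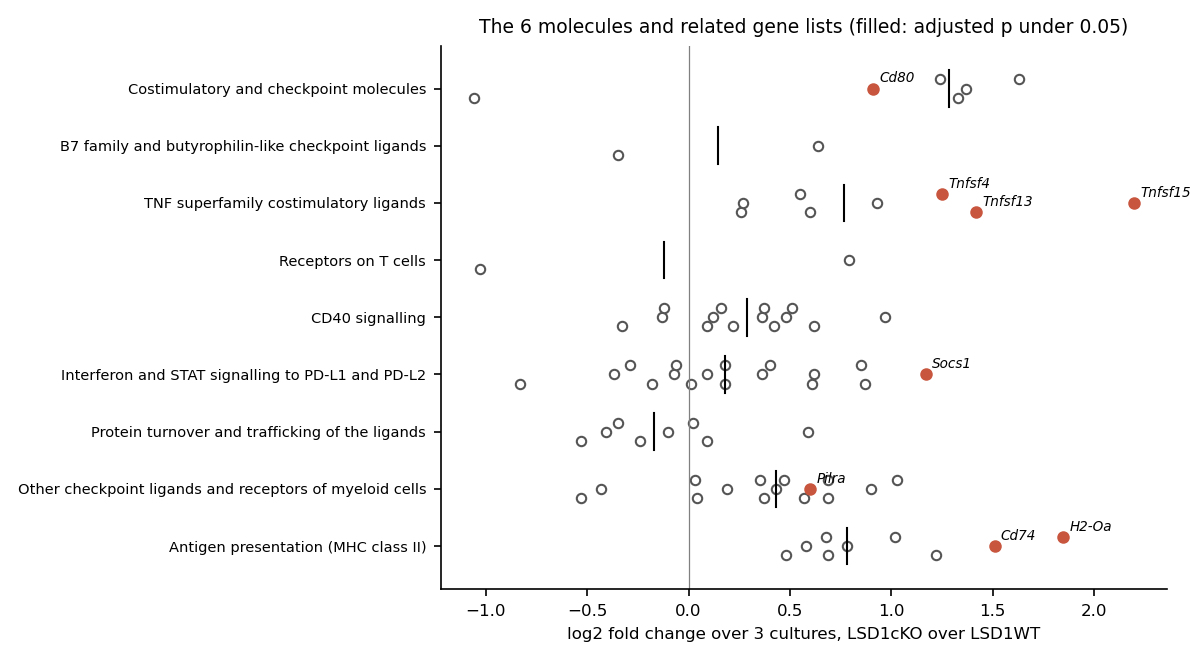
Log2 fold change of LSD1cKO over LSD1WT across the 3 cultures for the 6 molecules and the 8 related lists, 1 point per tested gene, with the median of each list as a vertical bar. Filled, named points passed the adjusted p threshold, and all of them lie above 0.

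The likeness of the 6 genes across libraries is a description, since the points share genotypes, mice and cultures, and it depended on the 2 libraries that stand apart. Over all 12 libraries Cd86 and Cd40 had a Pearson r of 0.89 and a Spearman rho of 0.94 in log2 CPM, and Cd274 and Pdcd1lg2, which are neighbours on chromosome 19, had 0.92 and 0.89. Without the 2 libraries, the Pearson r of these pairs was 0.95 and 0.86. Icosl with Cd274 had a Pearson r of -0.22 and a Spearman rho of 0.26 over 12 libraries, and 0.93 and 0.92 over the other 10. Icosl with Pdcd1lg2 had -0.45 and 0.06 over 12 libraries, and 0.80 and 0.82 over the other 10. The negative Pearson values were thus present only with femur LSD1WT replicate 2. Cd40 with Cd274 went from a Pearson r of 0.43 to 0.98. Cd80 stood most apart over the 10 libraries, with Pearson r from 0.40 with Pdcd1lg2 to 0.74 with Cd86, the ligand with which it shares receptors.

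Over all tested genes, the 3 with the highest Pearson r to each member in log2 CPM over 12 libraries were taken. For Cd86 they were Rp2 (0.982), Crlf3 (0.967) and Tmem150b (0.966). For Cd40 they were Ifi203 and Sp100 (both 0.994), which are interferon-inducible, and the Fc receptor gene Fcgr4 (0.991). For Cd274 they were the activation marker Cd69 (0.971), P2ry14 (0.969) and Slamf8 (0.967). For Icosl they were Hpgds (0.995), Macir (0.995) and Nfxl1 (0.991), and Hpgds ran from 40.8 to 378 CPM. For Cd80 they were Spaca6 (0.928), A630001O12Rik (0.923) and Chrm4 (0.920), the last 2 of which did not exceed 0.623 CPM, and for Pdcd1lg2 they were Rasa4 (0.954), Gm47753 (0.950) and Gstt2 (0.943). Over the 10 libraries without femur LSD1WT replicate 2 the Pearson r of these genes with their member was between 0.835 (Gstt2) and 0.996 (Ifi203). The genes were picked over libraries that include these 10, so these values are no separate check. Their rank among all genes over the 10 libraries was not taken.

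The split between Icosl and Cd274 can be set beside the osteoclast marker sum. In the femur LSD1WT replicate 2 libraries, with sums of 168 and 238 CPM, Icosl was 1.86 and 7.63 times the level of Cd274 by CPM. In the other 10 libraries, with sums from 11500 to 40900 CPM, it was between 0.039 and 0.0865 times. The macrophage gene Lyz2 was at 35300 and 13800 CPM in those 2 libraries and at 1230 to 7580 CPM in the others. Whether the osteoclast or macrophage content of the cultures sets the level of either ligand was not tested.

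**Figure D4:**
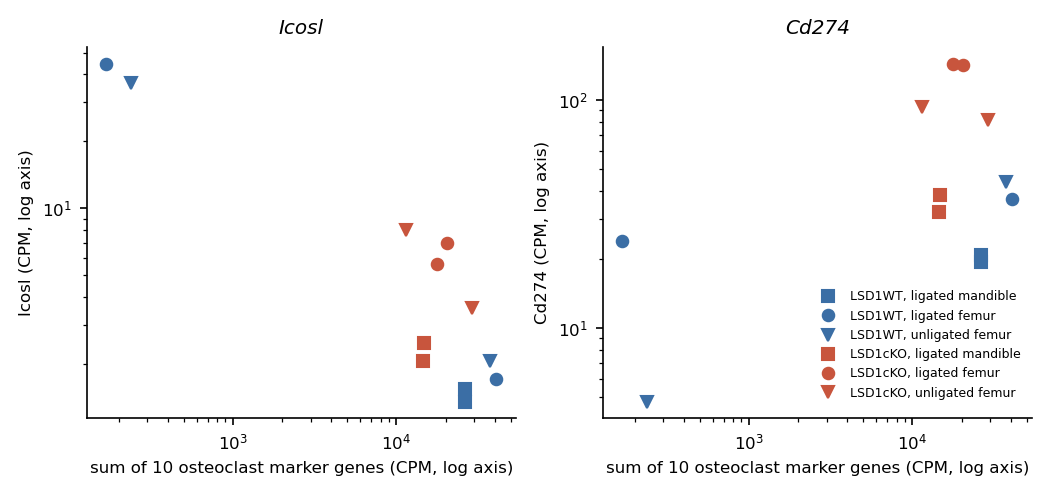
Icosl (left) and Cd274 (right) in CPM against the summed CPM of 10 osteoclast marker genes, both axes on a log scale, 1 point per library (blue LSD1WT, red LSD1cKO, squares mandible, circles ligated femur, triangles unligated femur). The 2 points with sums of 168 and 238 CPM are femur LSD1WT replicate 2, which have the highest Icosl and of which the unligated one has the lowest Cd274.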

How the data were processed

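PolyA RNA of 12 preosteoclast cultures was sequenced. The authors deposited raw read counts per gene for 57010 Ensembl genes, with no normalization. The submitters' processing notes name HISAT2 2.1.0, featureCounts, FastQC, edgeR and the build GRCm39; the annotation and strand setting are not given in the sources used here, so reads of overlapping genes on opposite strands may not be told apart.

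Counts were analysed in R 4.3.3 with edgeR 4.0.16. Genes were kept with filterByExpr, scaled by TMM, and tested with glmQLFit and glmQLFTest over all genes (Benjamini-Hochberg adjusted p under 0.05), in 1 model with the 6 conditions and 1 with culture and genotype. log2 CPM used a prior count of 2. Levels per kilobase used GENCODE vM21 exon lengths, from GRCm38. The fits were tested on simulated data with 200 genes changed. Over the 3 cultures 30% of 2-fold and 85% of 4-fold changes were recovered, and in the mandible 0% and 8.5%. The site, ligature and interaction comparisons were not simulated. P-values measure the spread between these libraries. Replicate numbers shared by the genotypes name different mice, whose differences correlated at -0.0226 and 0.224, and were not used as pairs. Between ligated and unligated femur, also of different mice, the correlation was 0.78 in LSD1WT and 0.224 in LSD1cKO. The mandible and ligated femur libraries of 3 mice pair by animal (correlation of 0.026 in LSD1cKO). Alternatives were DESeq2 1.42.0, limma 3.58.1 voom, other scalings and filters, and left-out libraries. The genes, lists, tests and alternatives were chosen with earlier results of these data known. The genes named are the 6 members, called genes of the related lists, T cell receptors of the ligands, the 3 nearest genes of each member and check genes. One gene of the related lists is not reported here. Other genes named for a list (Irf1, Traf2, Cd276, Vsir, Ms4a1, Cd79a, Cd79b, Xcr1, Trac and Cd3e) were chosen after their values were seen.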

Additional observations from a re-analysis of the deposited data

Results flagged for a closer look

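Cd274 in the unligated femur LSD1WT replicate 2 library lay far from the other 5 LSD1WT libraries. It was at 4.76 CPM, against 19.5 to 43.7 CPM in the others, and its gap to the nearest of them took 0.635 of the whole range in log2 CPM, which is above Dixon's 95% critical value for 6 samples. Chance alone gives about 1 such case in 20 groups, and 12 groups were looked at. The same library had an osteoclast marker sum of 238 CPM. Without it the log2 fold change of Cd274 over the 3 cultures was 1.42 (edgeR, adjusted p = 0.0155). The part of that marker loss in the value was not tested.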

How the results depend on the processing

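Over the 3 cultures 1 of the 6 genes was called. The count was 3 with no filter beyond 1 count, 4 with DESeq2, 5 without both femur LSD1WT replicate 2 libraries, and 0 when a log2 value of 1 or more was also asked for, with a replicate block, and with limma voom and a random effect of mouse. Leaving out 1 library gave 0 to 3: 3 without unligated femur LSD1WT replicate 2, 2 without either ligated femur LSD1WT library, and 0 without any mandible library or ligated femur LSD1cKO replicate 2 or unligated femur LSD1cKO replicate 2. Among related genes, 7 were called higher, 36 without both femur LSD1WT replicate 2 libraries, 12 with DESeq2, 5 with voom and 3 to 12 with 1 library left out (fewest without ligated femur LSD1cKO replicate 2, most without ligated femur LSD1WT replicate 2). In the mandible the count was 0, and 3 without both femur LSD1WT replicate 2 libraries, 4 with the mandible libraries alone and 0 to 1 with 1 library left out. In ligated femur it was 0, and 3 without both and 0 to 1. In unligated femur it was 0, and 2 without both and 0 to 1. For mandible against ligated femur it was 0 in LSD1WT, and 3 with no filter, 3 with DESeq2, 2 with the replicate block by mouse and 0 to 3 with 1 library left out. In LSD1cKO it was 0, and 4 without both femur LSD1WT replicate 2 libraries, 4 with the compared libraries alone, 4 with the block by mouse, 1 with DESeq2 and 0 to 2 with 1 left out. Of all genes, 11%, 20.8% and 18.6% were called lower in the first 3 of these alternatives, and 21.7%, 42.1% and 37.5% in either direction. No share of all genes is given here for the site counts with DESeq2 or no filter. For the ligature in LSD1WT it was 0, and 0 to 1. The left-out libraries that made calls where there were none were all femur LSD1WT libraries.

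Directions of the genotype and site comparisons turned for 3 genes. Icosl turned without both femur LSD1WT replicate 2 libraries (1.29 over the 3 cultures, 1.96 in ligated and 1.5 in unligated femur) and with 1 library left out (-2.73 to 1.87 in ligated and -2.58 to 1.5 in unligated femur), and in the mandible with the replicate block (-0.22). In the LSD1WT site comparison Cd80 turned without both femur LSD1WT replicate 2 libraries (0.40), with the replicate block (0.09), with the block by mouse (0.47) and with 1 library left out (-0.55 to 0.37), and Pdcd1lg2 turned with mandible LSD1WT replicate 3 as ligated femur (0.52) and with 1 left out (-0.84 to 1.19). Without both femur LSD1WT replicate 2 libraries the ligature values in LSD1WT all became negative (for example Cd274, from 0.33 to -0.29), and the interactions turned for Cd86, Cd80 and Icosl in both comparisons and for Cd40 between mandible and ligated femur. The correlations without these libraries, and the unadjusted counts without them, were added after seeing the data. Pairing by number also moved Pilra and Tnfsf15 over the threshold (edgeR, adjusted p = 0.0712 and 0.0829) and changed no other call of the genotype comparisons. With 2 libraries per condition the comparisons within 1 culture are the least precise, and Pdcd1lg2 is limited by its counts.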
